A study of Mus musculus with 30 samples.

Results

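The mouse mitochondrial genome carries 37 genes, and all 37 were found among the 54232 genes of the count table by a symbol that starts with mt-. They were 13 protein genes, 2 rRNA genes and 22 tRNA genes. All 13 protein genes and both rRNA genes had more than 14 counts over the 30 libraries, the limit for entering a test, as did 4 of the 22 tRNA genes. The samples were cultures of the mouse preadipocyte line 3T3-L1, sequenced as 6 groups of 5 libraries after 5 days in adipogenic medium, which holds insulin, dexamethasone, isobutylmethylxanthine and indomethacin and was shared by every group. A group given no agent served as the control, and the others received pNaKtide (0.7 µM), IS (indoxyl sulfate, 100 µM), IS with pNaKtide at the same doses, oxLDL (oxidized low density lipoprotein, 50 µg/mL) or oxLDL with pNaKtide at the same doses. IS is a uremic toxin, oxLDL a source of oxidant stress, and pNaKtide a cell-permeant peptide made to block signaling through Na,K-ATPase and Src. The labels name adipose tissue as the source of the RNA beside the cell line, they give 5 days of treatment where the methods of the study give a shorter one, and no untreated preadipocytes before adipogenic medium are among the samples. Neither the labels nor the methods say whether the 5 libraries of a group came from separate experiments, so p-values measure only the spread between these libraries. The question was how transcripts of the mitochondrial genome stood across the 6 groups and how much of each library they took up.

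Mitochondrial DNA is a small circle held in many copies per cell. It encodes subunits of respiratory complexes I, III and IV and of complex V, the ATP synthase, and the rRNAs and tRNAs used to translate them. All other subunits and the proteins that copy, transcribe and translate it are encoded in the nucleus. Each strand is transcribed by the polymerase Polrmt into long RNAs, which are cut at the tRNAs that lie between most genes, so that mRNAs, rRNAs and tRNAs of a strand begin as 1 transcript and part ways by processing, polyadenylation and decay. Adipocytes gain mitochondria as they differentiate and use them for fatty acid oxidation, lipogenesis and, in brown and beige fat, heat. In bulk RNA, a change in the number of mitochondria, in mitochondrial DNA per mitochondrion and in transcript per DNA copy cannot be told apart, nor can fewer cells of a type and less RNA per cell.

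On the annotated mitochondrial chromosome (M, GRCm38, GENCODE M21), 12 protein genes lie on the plus strand and mt-Nd6 on the minus strand. Some genes share bases, which bears on how reads can be assigned to them. The complex V genes share the most, 43 bases at chrM:7927-7969, which are the end of mt-Atp8, a gene of only 204 bases (chrM:7766-7969), and the start of mt-Atp6 (chrM:7927-8607). The whole of mt-Atp8 and the first 100 bases of mt-Atp6 are shown 5′ to 3′ from the GENCODE M21 transcripts, with the shared bases in capitals.
mt-Atp8: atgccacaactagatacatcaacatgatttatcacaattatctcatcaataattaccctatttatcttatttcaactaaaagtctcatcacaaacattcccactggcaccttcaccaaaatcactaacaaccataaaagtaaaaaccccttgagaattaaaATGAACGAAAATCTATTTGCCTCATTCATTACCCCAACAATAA
mt-Atp6: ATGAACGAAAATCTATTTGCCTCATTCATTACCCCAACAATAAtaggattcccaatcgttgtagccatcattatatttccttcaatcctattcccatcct
The complex I genes mt-Nd4l (chrM:9877-10173) and mt-Nd4 (chrM:10167-11544) share 7 bases, in capitals in the last 60 bases of mt-Nd4l and the first 60 of mt-Nd4.
mt-Nd4l: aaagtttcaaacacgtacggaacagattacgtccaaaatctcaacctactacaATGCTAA
mt-Nd4: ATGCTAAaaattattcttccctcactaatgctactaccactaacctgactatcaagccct
On opposite strands, mt-Nd5 (chrM:11742-13565) and mt-Nd6 (chrM:13552-14070, minus strand) share 14 bases, shown in capitals in the last 60 bases of each, written along its own strand.
mt-Nd5: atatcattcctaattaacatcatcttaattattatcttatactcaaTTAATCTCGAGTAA
mt-Nd6: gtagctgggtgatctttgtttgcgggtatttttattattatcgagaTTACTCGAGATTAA
How reads over shared bases were counted, and whether counting used strand, is not given in the sources used here. Of the tRNA genes, mt-Ts1 (chrM:6870-6938, minus strand) overlaps the end of mt-Co1 (chrM:5328-6872) by 3 bases on the opposite strand.

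Nuclear genes with the sequence of 6 of the 13 protein genes were counted beside them, and other annotated genes were not searched for such copies. On chromosome 1, 6 genes in a row within 4031 bases (chr1:24611535-24615565, minus strand, GRCm38) copy mitochondrial genes. Gm28661 matched the first 681 of 684 bases of mt-Co2, Gm10925 the first 678 of 681 of mt-Atp6, Gm28437 the first 783 of 784 of mt-Co3, Gm10222 the first 294 of 297 of mt-Nd4l and Gm28439 the first 876 of 1378 of mt-Nd4, each with 0 differences. The first 345 of 348 bases of mt-Nd3 differed from Gm28438 at 1 base, T3C (the mitochondrial base, its position from 1 at the gene's start, then the base of the copy), which is in capitals in the first 40 bases of both (chrM:9459-9498 and chr1:24613080-24613119).
mt-Nd3: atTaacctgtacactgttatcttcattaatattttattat
Gm28438: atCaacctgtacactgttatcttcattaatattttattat
A read from such a stretch cannot be assigned by its sequence. For 5 of the pairs, the mitochondrial gene and its copy had nearly equal counts in every library, with the copy at 0.966 to 1.03 times the mitochondrial gene over these pairs and the 30 libraries. Over the 30 libraries, mt-Co2 had 2523053 counts and Gm28661 2529621, and mt-Co3 had 2554495 counts and Gm28437 2557105. Gm28439, which copies only the start of mt-Nd4, had 0.348 to 0.621 times its counts. The stretch between Gm10925 and Gm28661 is 233 bases long, against 230 between mt-Co2 and mt-Atp6, where mt-Atp8 lies, and nuclear sequence outside annotated genes was not analysed here. Counts of these 6 mitochondrial genes are therefore given as deposited, and their sums with the copies beside the results they change. Whether a read that matches both was counted at each of them or at only 1 is not given in the sources used here, so that a sum may hold the same read at both places.

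**Figure D1:**
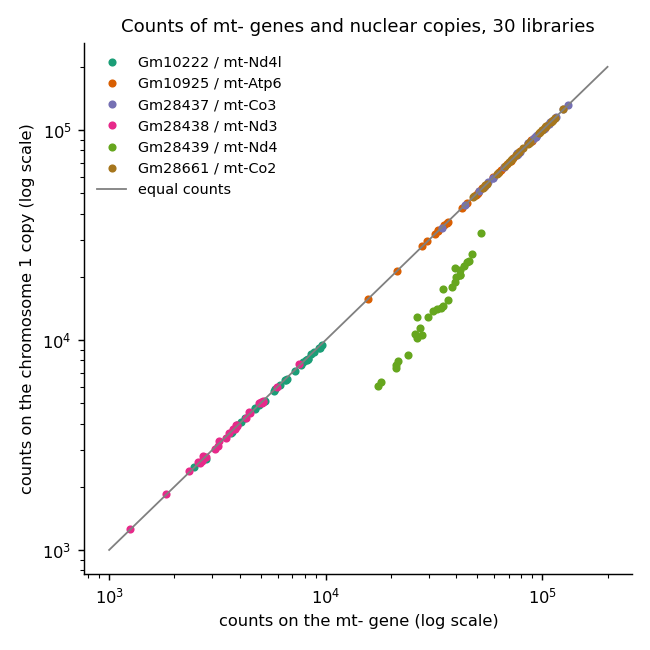
Counts per library on 6 mitochondrial genes (horizontal, log scale) and on the matching gene of chromosome 1 (vertical, log scale), with 1 point for each of 30 libraries and a pair per colour. Points of 5 pairs lie on the line of equal counts, and those of mt-Nd4, of which the copy covers 876 of 1378 bases, lie below it at 0.348 to 0.621 times.

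The libraries held 6945498 to 15159877 counts (median 11524210), of which 299224 to 776213 fell on mt- genes, so that counting error on a protein gene was small beside the spread between libraries. The cells carried adipocyte transcripts in every library, with the fatty acid carrier Fabp4 at 1985 to 3162.5 CPM (counts scaled to the library's total, here with no further scaling) and the adipokine Adipoq at 732 to 1268 CPM, while Lep, the hormone leptin, was at 0 in 4 libraries and at most 0.886 CPM. The summed level of the 10 adipocyte markers was 13734 to 15714 CPM in controls, 14151 to 17323 CPM with oxLDL and 14071 to 15067 CPM with oxLDL and pNaKtide, and that of 5 preadipocyte or fibroblast markers 2179 to 2960.1, 1686 to 2083 and 1636 to 2685 CPM in the same groups. With pNaKtide, IS and IS with pNaKtide the adipocyte markers summed to 13607 to 16456, 12281 to 14506 and 12973 to 14821 CPM and the preadipocyte or fibroblast markers to 1407 to 2736, 1313 to 2291 and 1162 to 1808 CPM, so that the latter lay below every control with oxLDL and with IS and pNaKtide. Most of the latter sum was the collagen gene Col1a1, at a median of 1666 CPM over the 30 libraries. Pdgfra, Dlk1, Ly6a and Thy1 were at medians of 112, 127, 18.4 and 63.2 CPM. With oxLDL against control, the log2 fold changes were -0.57 for Col1a1, -0.69 for Dlk1, -0.16 for Ly6a, -0.21 for Thy1 and 0.24 for Pdgfra. With IS and pNaKtide they were -1.04, -0.55, -0.42, -0.24 and 0.00 in the same order. The part of the markers in the results was not tested. Of 5 macrophage markers, Ptprc and Itgam were at 0 in all 30 libraries and the summed level was at most 6.97 CPM, nearly all of it Cd68, and of 4 endothelial markers Cdh5, Kdr and Tek had 6, 8 and 8 counts in total. Some libraries stood apart from their group. Each library's counts followed a trend over GC content and gene length, and the mitochondrial protein genes, with a median GC content of 37.1% against 49.4% for all genes tested, sit at its AT-rich end. The trend at these 13 genes, as a log2 value per library, was 0.16 to 0.51 with oxLDL, -0.40 to 0.03 in controls and -0.65 to 0.13 with oxLDL and pNaKtide, and IS replicate 4 was at -0.26 where the other IS libraries were at 0.20 to 0.36. In oxLDL with pNaKtide replicate 1, RNAs that carry no poly(A) tail took 0.269% of counts, against 0.0121% to 0.0424% in the other 29 libraries.

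All mt- genes together took up 3.47% to 6.61% of a library, with a median of 4.98% over the 30 libraries. In control libraries 1 to 5 the share was 5.46, 4.38, 5.00, 4.25 and 3.47%. It was 4.79, 4.67, 5.34, 4.48 and 4.61% with pNaKtide and 5.04, 4.96, 5.53, 4.95 and 4.52% with IS. These groups overlapped, with the widest range in controls. With IS and pNaKtide the share was 4.25, 5.93, 5.88, 5.79 and 4.90%, and with oxLDL 4.60, 5.53, 5.88, 4.38 and 5.12%. With oxLDL and pNaKtide it was 6.28, 6.61, 6.07, 4.31 and 5.36%, a mean of 5.73% ± 0.916 (SD, n = 5) against 4.51% ± 0.758 in controls and 5.10% ± 0.623 with oxLDL. Replicates 1, 2 and 3 of this group lay above every control, while replicate 5 lay within the controls and replicate 4, the library with the fewest counts of all, lay below the control median, so that the groups overlapped. Protein genes made up nearly all of the share, with group means of 4.42% to 5.59% of the library, and the rRNA genes took 0.0727% to 0.248%. The nuclear copies took a further 1.37% to 2.73% of each library. Counted with them, the group means ran from 6.34% in controls to 8.01% with oxLDL and pNaKtide, in the order control, pNaKtide, IS, oxLDL, IS with pNaKtide and oxLDL with pNaKtide.

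**Figure D2:**
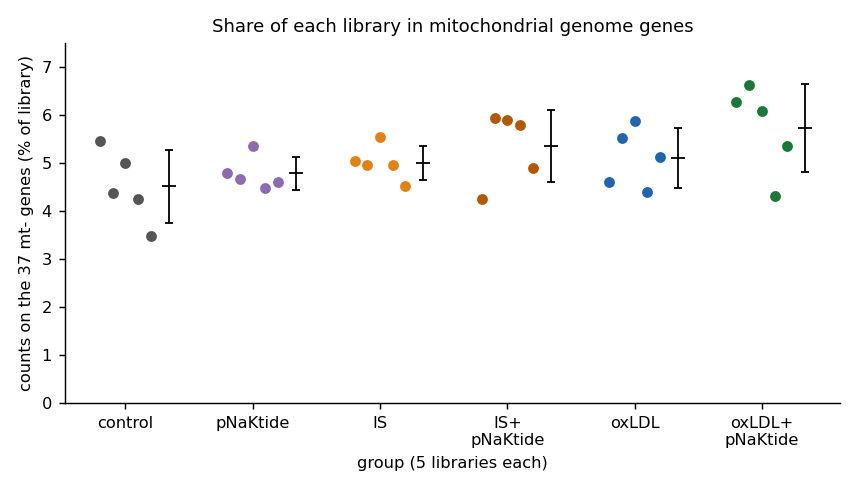
Share of each library's counts on the 37 mt- genes in percent (vertical) for the 6 groups, with 1 point per library and the mean ± SD of 5 libraries as a bar. The lowest library is a control at 3.47% and the highest one with oxLDL and pNaKtide at 6.61%, and all groups overlap with the controls.

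Per length, mitochondrial mRNAs were among the most abundant transcripts. In the deposited FPKM values (fragments per kilobase of gene, scaled to library size, mean of 30 libraries), the complex IV subunits mt-Co2 (10633), mt-Co1 (10099.8) and mt-Co3 (9244) ranked 3, 4 and 6 of all genes. The nuclear copies are genes of their own in this ranking. The ATP synthase subunit mt-Atp6 (6543 FPKM) ranked 8, the complex I subunit mt-Nd1 (3115) 9 and cytochrome b of complex III, mt-Cytb (2938), 11. The other subunits of complex I were lower, from mt-Nd4 at 2095 FPKM through mt-Nd4l, mt-Nd2, mt-Nd5 and mt-Nd6 to mt-Nd3 at 915, and mt-Atp8 was at 1159 FPKM. Ranges over the 30 libraries overlapped between neighbours in this order. Adding the nuclear copy brought mt-Co2 to 21293 FPKM, mt-Co3 to 18498 and mt-Atp6 to 13080, above mt-Co1, which none of the 6 copies matches. The rRNAs mt-Rnr1 (12S) and mt-Rnr2 (16S), which carry short or no poly(A) tails, were at 552 and 293 FPKM in these poly(A)-selected libraries.

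The genes did not vary alike between libraries of a group. On a log2 scale of CPM normalised by edgeR's TMM method, the scale of all values per gene that follow, the SD within groups was 0.147 for mt-Cytb, 0.18 to 0.21 for mt-Nd1, mt-Nd2, mt-Co1, mt-Co2, mt-Nd5 and mt-Nd6, and 0.25 to 0.35 for mt-Nd4, mt-Co3, mt-Nd3, mt-Nd4l and mt-Atp6. It was 0.444 for mt-Atp8, the shortest of them. As a share of the counts on the 13 protein genes, mt-Co1 made up 33.7% ± 1.82 (SD, n = 5) in controls, 35.2% ± 1.82 with pNaKtide, 29.3% ± 3.31 with IS and 30.3% ± 1.04 with IS and pNaKtide. It made up 27.6% ± 2.22 with oxLDL and 32.9% ± 1.51 with oxLDL and pNaKtide. The share of mt-Atp6 went the other way, at 8.56% ± 0.855 in controls, 11.8% ± 1.74 with oxLDL and 6.91% ± 1.54 with oxLDL and pNaKtide. Every oxLDL library had a smaller part of its mitochondrial mRNA counts on mt-Co1 than any library with oxLDL and pNaKtide. These parts were 24.8% to 30.5% and 30.7% to 34.7%. The part of mt-Co2 was also smaller in every oxLDL library, at 13.67% to 14.68% against 15.22% to 18.24%. Those of mt-Co3, mt-Atp6 and mt-Atp8 were larger in every oxLDL library, for mt-Co3 at 15.06% to 16.82% against 11.75% to 14.78%. For the other protein genes these groups overlapped. The nuclear copies of mt-Atp6, mt-Co2 and mt-Co3 had nearly equal counts, while none of the 6 copies matches mt-Co1, and these shares were not tested. GC content was 39.9% for mt-Co1, 38.6% for mt-Co2, 38.9% for mt-Co3, 36.0% for mt-Atp6 and 31.9% for mt-Atp8. The part of the trend over GC content and gene length in these shares was not tested.

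Few mitochondrial mRNAs passed the threshold between oxLDL-treated and control cells, and the direction of their changes depended on whether the trend over GC content and gene length was kept. Against control cells, 2 of the 13 protein genes were higher with oxLDL and 0 lower at a BH-adjusted p-value of 0.1 in edgeR's quasi-likelihood test, where 36.0% of all 20139 genes tested were called, 18.1% higher and 18.0% lower. The median log2 fold change of the 13 genes was 0.11 and that of all genes tested 0.04. Both genes that rose encode subunits of the ATP synthase. mt-Atp8 was at 224, 174, 236, 191 and 181 CPM in control libraries 1 to 5 and at 221, 889.9, 289, 192 and 351 CPM with oxLDL. Its log2 fold change was 0.95 ± 0.27 (SE), with a BH-adjusted p-value of 0.014 in edgeR. Replicate 2 of oxLDL stood far above the other libraries, the groups overlapped, and without that replicate the log2 fold change was 0.39 and mt-Atp8 was not called. mt-Atp6, the proton channel subunit, was at 4203, 3565, 5046, 3499 and 3029 CPM in controls and at 4711, 7011, 6135, 3969 and 6030.4 CPM with oxLDL, a log2 fold change of 0.53 ± 0.20 with a BH-adjusted p-value of 0.0502 in edgeR. These groups overlapped too, and the call was lost when control replicate 2, 4 or 5 or oxLDL replicate 2 or 5 was left out. Without oxLDL replicate 2, 0 of the 13 genes were called, against 26.5% of all genes, and without control replicate 1, 4 were, against 46.1%.

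No mRNA of complexes I, III or IV passed the threshold between oxLDL-treated and control cells. The log2 fold changes of the 7 complex I genes lay between 0.03 (mt-Nd1, SE 0.12) and 0.35 (mt-Nd4l, SE 0.20), that of mt-Cytb was 0.11 ± 0.11, and those of mt-Co2 and mt-Co3 were 0.12 ± 0.12 and 0.10 ± 0.16. mt-Co1, the catalytic core of cytochrome c oxidase, was at 16436, 15827, 15868, 15773 and 11853 CPM in controls and at 11682, 12395, 15947, 12545 and 12032 CPM with oxLDL. Its log2 fold change of -0.23 ± 0.13 did not pass (BH-adjusted p-value 0.182 in edgeR), and the groups overlapped, with only control replicate 1 and oxLDL replicate 1 outside the range of the other group. In 0 of the 13 genes were the oxLDL and control groups apart, against 8.35% of all genes tested. With its nuclear copy added, mt-Nd4 passed, at a log2 fold change of 0.41 in place of 0.29. With the trend over GC content and length taken out of each library, 10 of the 13 genes were lower and 0 higher with oxLDL, where 12.7% of all genes were lower and 8.15% higher, with log2 fold changes from -0.72 (mt-Co1) to -0.31 (mt-Co2) among those called, and mt-Atp8 and mt-Atp6, at 0.28 and -0.07, were not called. The trend moved with the groups compared, and its part in the result was not tested.

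Treatment with IS or with pNaKtide alone gave no call among the mitochondrial genes. With IS, 0 of the 13 protein genes were called against control cells, where 7.94% of all genes tested were, and 0 of 13 had an unadjusted p-value under 0.05 in edgeR, against 25.0% of all genes tested. Log2 fold changes lay between -0.15 (mt-Co1, SE 0.13) and 0.35 (mt-Atp6, SE 0.20). Groups were apart for 0 of the 13 genes and for 1.81% of all genes tested. mt-Co1 with IS was at 12436, 12081, 13744, 17974 and 12081 CPM, and replicate 4 stood above the other libraries of the group. Leaving out control replicate 1 gave 2 genes higher, where 33.4% of all genes were called, and leaving out IS replicate 4 gave 1, where 34.4% were. Leaving out any other library of these groups gave 0 and lowered the share of all genes called to between 0.0747% and 1.52%. pNaKtide alone was set against the same control libraries. Here too 0 of 13 genes were called in edgeR, against 0.00497% of all genes tested, and 3 of 13 had an unadjusted p-value under 0.05, against 6.12% of all genes tested. These 3 were complex I subunits, mt-Nd5 at a log2 fold change of 0.31 ± 0.13, mt-Nd6 at 0.29 ± 0.12 and mt-Nd2 at 0.28 ± 0.13. mt-Nd2 was at 1699, 1640.1, 1634, 1604 and 1688 CPM with pNaKtide and at 1599, 1325, 1399.8, 1426 and 1062 CPM in controls, and was the 1 of 13 genes whose groups did not overlap, against 0.934% of all genes tested. DESeq2 called 0 of the 13 genes in each of these comparisons, against 15.7% of all genes with IS and 0.283% with pNaKtide.

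Concomitant treatment with pNaKtide was followed by higher levels of 7 of the 13 mitochondrial mRNAs in oxLDL-treated cells. Between cells given oxLDL with pNaKtide and cells given oxLDL alone, these 7 were higher and 1 lower at a BH-adjusted p-value of 0.1 in edgeR. Of all genes tested, 48.3% were called in this comparison, 22.1% higher and 26.1% lower. The median log2 fold change of the 13 genes was 0.30 and that of all genes tested -0.09. The genes that rose belonged to complexes I, III and IV, and the gene that fell was mt-Atp8. Groups did not overlap for mt-Co1, mt-Co2 and mt-Nd6, 3 of 13, against 28.4% of all genes tested.

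Of complex IV, which passes electrons to oxygen, mt-Co1 was at 11682, 12395, 15947, 12545 and 12032 CPM with oxLDL and at 22940.4, 22323, 18709, 16212 and 20041 CPM with oxLDL and pNaKtide. All 5 libraries with pNaKtide lay above all 5 without, and the log2 fold change of 0.63 ± 0.13 was the highest of the 13 (BH-adjusted p-value 0.000234 in edgeR). mt-Co2, which takes up electrons from cytochrome c, was at 6055, 7101, 7712, 5838 and 6574 CPM with oxLDL and at 10174, 10544, 11114, 7918 and 9799 CPM with both. These groups did not overlap either, and the log2 fold change was 0.57 ± 0.13 (BH-adjusted p-value 0.000485 in edgeR). mt-Co3 did not pass, at a log2 fold change of 0.15 ± 0.16. Of complex I, which takes electrons from NADH, mt-Nd6, the only mRNA of the minus strand, was at 453, 519.7, 603, 475 and 499.9 CPM with oxLDL and at 800.2, 822, 838, 722 and 679 CPM with both. Its groups did not overlap, and its log2 fold change was 0.60 ± 0.12 (BH-adjusted p-value 0.000244 in edgeR). mt-Nd1, where ubiquinone enters the complex, was at 2342, 2828, 3648, 2384 and 2689 CPM with oxLDL and at 4077, 4339, 3386, 4150.2 and 4097 CPM with both. Replicate 3 of each group lay inside the range of the other, and the log2 fold change was 0.53 ± 0.12. The proton-pumping subunits mt-Nd5 (0.51 ± 0.13) and mt-Nd2 (0.46 ± 0.13) also rose, while mt-Nd4 (0.30 ± 0.15), mt-Nd4l (0.18 ± 0.20) and mt-Nd3 (-0.15 ± 0.19) did not pass.

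mt-Cytb, the single mitochondrial subunit of complex III, was at 2881, 3139, 4079.5, 3069 and 3246 CPM with oxLDL and at 4289, 4273, 3822, 3202 and 3807 CPM with oxLDL and pNaKtide. The groups overlapped, and its log2 fold change of 0.24 ± 0.11 passed narrowly (BH-adjusted p-value 0.0653 in edgeR). The call was lost when oxLDL replicate 1, 2, 4 or 5 or replicate 1 or 2 of the group with pNaKtide was left out. Of complex V, mt-Atp8 was lower with pNaKtide, at 177, 255, 192, 157 and 168 CPM against 221, 889.9, 289, 192 and 351 CPM with oxLDL. The log2 fold change was -1.03 ± 0.27 (BH-adjusted p-value 0.00295 in edgeR), and without oxLDL replicate 2 it was -0.47 and still past the threshold. mt-Atp6 was not called, at -0.39 ± 0.20. Over the 10 fits that left out 1 library of these groups, 7 to 10 of the 13 genes were called, 6 to 8 of them higher and 1 or 2 lower, against 41.5% to 48.9% of all genes. With the trend over GC content and length taken out, 10 of the 13 genes were higher and 0 lower, where 20.1% of all genes were higher and 16.5% lower, the log2 fold changes of those called lay between 0.49 (mt-Nd3) and 1.37 (mt-Nd5), and mt-Atp8, at -0.37, was not called. When libraries were scaled by their total counts alone, 5 genes were higher and 2 lower, where 13.4% of all genes tested were higher and 38.1% lower and their median was -0.30.

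**Figure D3:**
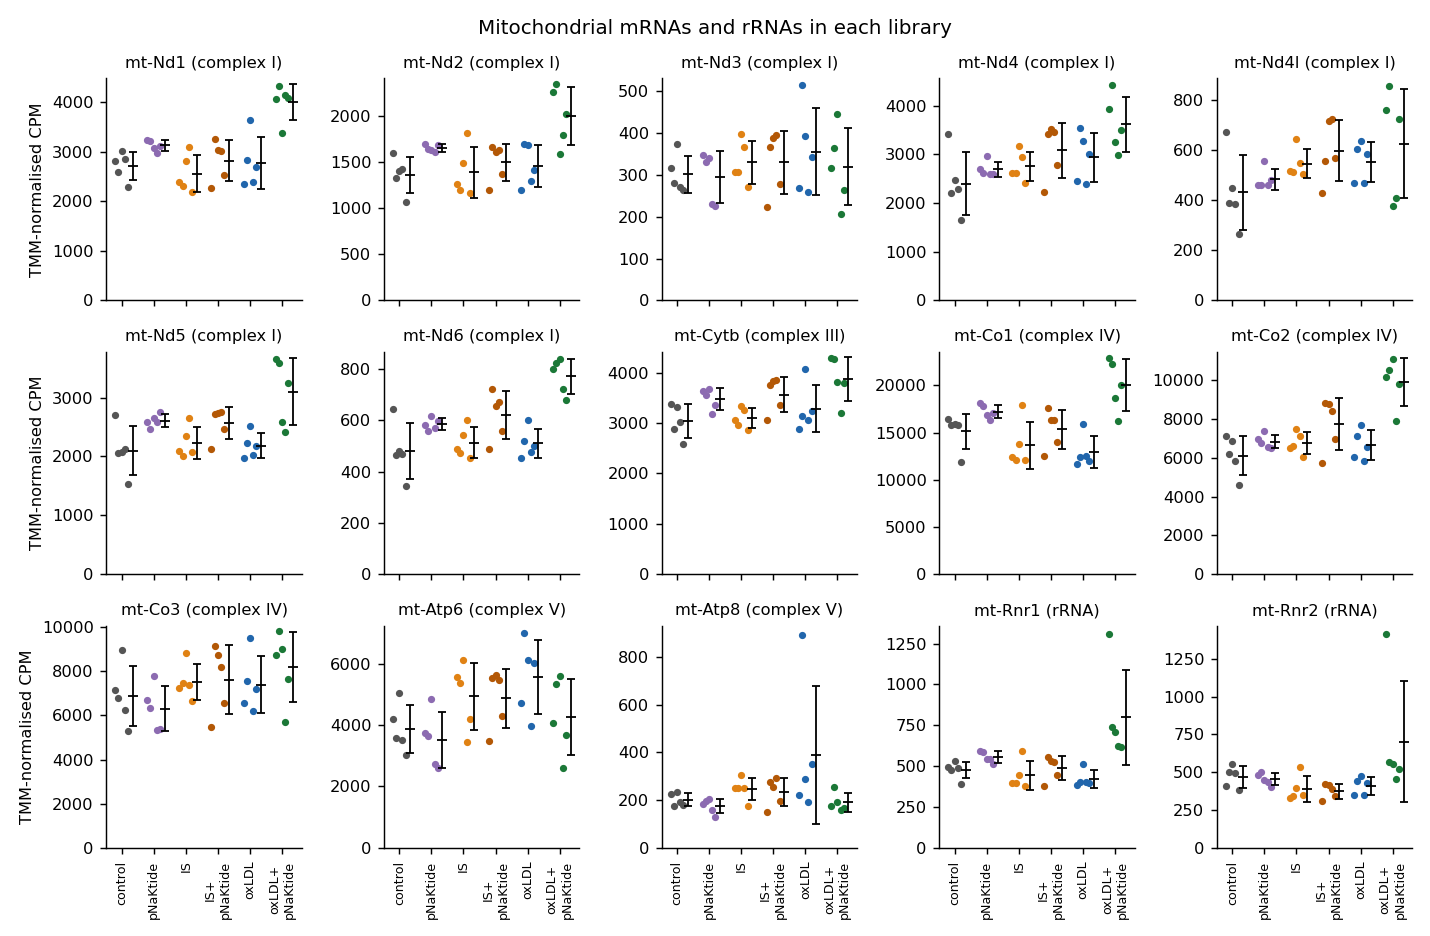
TMM-normalised CPM (vertical, from 0) of the 13 mitochondrial mRNAs, by respiratory complex, and the 2 rRNAs in the 6 groups, with 1 point per library and the mean ± SD of 5 libraries as a bar. The libraries with oxLDL and pNaKtide stand above those with oxLDL for mt-Co1, mt-Co2 and mt-Nd6, mt-Atp8 has 1 oxLDL library at 889.9 CPM, and both rRNAs have 1 library with oxLDL and pNaKtide above 1300 CPM.

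Set against control cells, the cells given oxLDL and pNaKtide had higher levels of 8 of the 13 mitochondrial mRNAs, which belong to complexes I, III and IV. In edgeR 0 of the 13 were lower, where 5.20% of all genes tested were called, 2.04% higher and 3.16% lower. The control libraries are those of the comparison of oxLDL with control. The median log2 fold change of the 13 genes was 0.53, against -0.03 for all genes tested. mt-Co2 was at 7137, 6185, 6852, 5849 and 4571 CPM in controls, below every library with oxLDL and pNaKtide, and its log2 fold change was 0.70 ± 0.13 (BH-adjusted p-value 0.00311 in edgeR). mt-Nd6, at 645, 465, 478, 469 and 342 CPM in controls, rose by 0.69 ± 0.12 on the log2 scale, and mt-Nd1, at 2818, 2602, 3027, 2855 and 2287 CPM in controls, by 0.56 ± 0.12. These 3 were the genes whose groups did not overlap, against 4.03% of all genes tested. The log2 fold changes of mt-Nd4, mt-Nd5 and mt-Nd2 were 0.59, 0.56 and 0.55, and those of mt-Co1 and mt-Cytb, the smallest among the genes called, 0.40 and 0.35. Of the same complexes, mt-Co3 (0.25 ± 0.16), mt-Nd3 (0.09 ± 0.19) and mt-Nd4l (0.53 ± 0.20) were not called, and neither were mt-Atp8 (-0.08 ± 0.27) and mt-Atp6 (0.14 ± 0.20) of complex V. Leaving out single libraries gave 6 to 9 genes, against 2.51% to 6.54% of all genes, and taking out the trend over GC content and length gave 8 higher and 0 lower, where 5.15% of all genes were higher and 4.39% lower, with log2 fold changes of 0.44 (mt-Cytb) to 0.78 (mt-Nd4). In a model of this pair of groups alone, 0 of the 13 and 11 of all genes tested were called, with 2530 of all genes at an unadjusted p-value under 0.05.

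**Figure D4:**
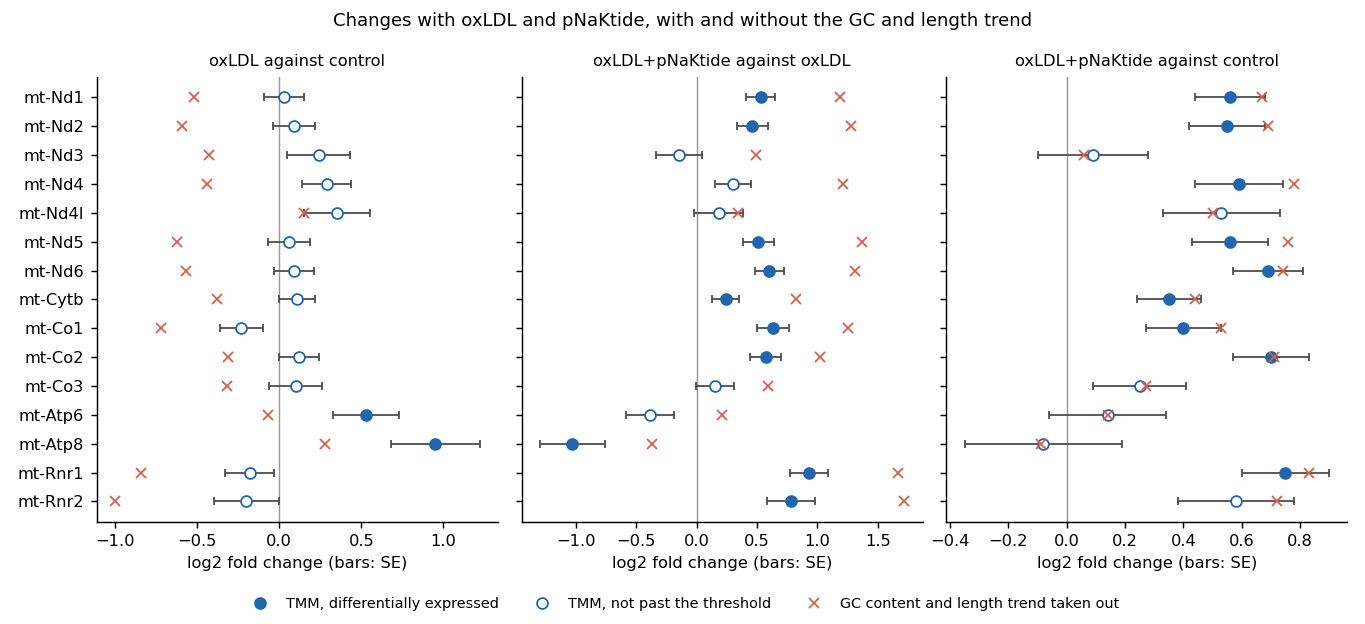
Log2 fold changes (horizontal, bars are SE) of the 13 mitochondrial mRNAs and 2 rRNAs in 3 comparisons, with filled circles for genes called at a BH-adjusted p-value of 0.1, open circles for the others and crosses for the values with the GC content and length trend taken out. The crosses lie left of the circles for oxLDL against control, right of them for oxLDL with pNaKtide against oxLDL, and near them for oxLDL with pNaKtide against control.

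The rRNAs were higher with oxLDL and pNaKtide as well. mt-Rnr1 was at 382, 403, 514, 405 and 397 CPM with oxLDL and at 1311, 742, 707, 624 and 616 CPM with oxLDL and pNaKtide, a log2 fold change of 0.93 ± 0.16 (BH-adjusted p-value 3.92e-05 in edgeR). Its groups did not overlap. mt-Rnr2 was at 349.6, 442, 473, 348 and 432 CPM with oxLDL and at 1413, 570.2, 552, 454 and 523 CPM with both, a log2 fold change of 0.78 ± 0.20 (BH-adjusted p-value 0.0027 in edgeR), and its groups overlapped. In both genes replicate 1 with pNaKtide was far above the others. That library also had the highest share of RNAs without a poly(A) tail, such as Rn7s1, the RNA of the signal recognition particle, at 608 CPM where the group's lowest library was at 38.9 CPM and oxLDL libraries were at 8.64 to 37.7 CPM. Of 9 tested genes for RNAs without a poly(A) tail or with ribosomal DNA sequence, 9 were higher and 0 lower in this comparison, with a median log2 fold change of 3.22. Of all genes tested, 22.1% were higher and 26.1% lower. Among the 9 is Lars2, the gene of the mitochondrial leucyl-tRNA synthetase, listed because its 3′ end overlaps an antisense ribosomal repeat. Without replicate 1, 7 of the 9 were higher and 0 lower, with a median of 1.15, where 46.9% of all genes were called, and the other 4 libraries with oxLDL and pNaKtide held 0.0268% to 0.0424% of their counts on these RNAs, against 0.0142% to 0.0251% with oxLDL. Without replicate 1 the log2 fold changes were 0.69 for mt-Rnr1 and 0.37 for mt-Rnr2, both still called. Against control cells mt-Rnr1 rose by 0.75 ± 0.15 on the log2 scale and mt-Rnr2, at 0.58 ± 0.20, was not called. Without replicate 1 these values were 0.51, still called, and 0.18, while mt-Rnr2 was called when replicate 2, 3, 4 or 5 of this group was left out instead. The part of RNA without a poly(A) tail in these values was not tested.

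With IS, the addition of pNaKtide gave no call. Between cells given IS with pNaKtide and IS alone, 0 of the 13 protein genes and 0% of all genes tested were called in edgeR, and 1 of the 13, mt-Nd6, had an unadjusted p-value under 0.05, against 2.80% of all genes tested, at a log2 fold change of 0.27 ± 0.12. DESeq2 called 0 of the 13 and 0.0695% of all genes. Groups were apart for 0 of the 13 genes and 0.834% of all genes tested. mt-Co1 was at 12502, 17641, 16364, 16346 and 14014 CPM with IS and pNaKtide, and its log2 fold change against IS was 0.17 ± 0.13. Against control cells, 0 of 13 genes were called with IS and pNaKtide, where 0.358% of all genes tested were, 6 of 13 had an unadjusted p-value under 0.05 in edgeR, as had 4022 of the 20139 genes tested, and all 13 log2 fold changes were above 0, from 0.02 (mt-Co1) to 0.47 (mt-Nd4l). DESeq2 called 2 of the 13, against 7.38% of all genes, and edgeR called 6 when control replicate 1 was left out, in a fit that called 26.9% of all genes. Groups were apart for 0 of the 13 genes and 3.79% of all genes tested.

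Whether the change with pNaKtide differed with and without oxLDL was tested as a difference of log2 fold changes. In edgeR, 1 of the 13 protein genes passed, mt-Co1, where 24.6% of all genes tested did, 12.8% higher and 11.8% lower. mt-Co1 changed by 0.63 with pNaKtide in oxLDL-treated cells and by 0.19 without oxLDL, a difference of 0.45 ± 0.18 (BH-adjusted p-value 0.0845). The call was lost in 12 of the 20 fits that left out 1 library. The rRNAs passed too, mt-Rnr1 with a difference of 0.71 ± 0.22 and mt-Rnr2 with 0.83 ± 0.29, the latter not when replicate 1 with oxLDL and pNaKtide was left out. Between IS and no IS, the change with pNaKtide differed for 0 of the 13 genes and 0% of all genes tested, and 0 of the 13 had an unadjusted p-value under 0.05, against 3.07% of all genes tested. DESeq2 called 0 of the 13 and 0% of all genes. Between oxLDL and IS, it differed for 2 of the 13 genes in edgeR, against 29.3% of all genes tested, 13.9% higher and 15.4% lower. mt-Co1 was 1 of them, with a difference of 0.46 ± 0.18 (BH-adjusted p-value 0.0651 in edgeR), and mt-Atp8 the other, with -0.96 ± 0.38 (BH-adjusted p-value 0.0723 in edgeR). Neither gene was called without IS replicate 4, and neither without oxLDL replicate 2. With the GC and length trend taken out, 10 genes were higher and 0 lower in the first of these tests, where 7.71% of all genes were higher and 4.25% lower. In the last, 9 were higher and 0 lower, where 11.1% and 6.94% of all genes were.

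Mitochondrial tRNAs were close to absent from these libraries. The 22 genes had 639 counts in all 30 libraries together, with 6 to 62 counts per library, and 8 of them had 0 counts. mt-Ts1, which overlaps mt-Co1 on the other strand, held 422 of these counts and was the only one with a mean of 1 CPM or more. It was at 1.89, 0.711, 0.955, 0.528 and 0.189 CPM in controls and at 0.706, 3.40, 0.618, 1.45 and 0.913 CPM with oxLDL, and was called in none of the 10 comparisons. mt-Tp, with 89 counts in total and 0 to 8 per library, was called lower with oxLDL than in controls (log2 fold change -1.31 ± 0.55, BH-adjusted p-value 0.0723 in edgeR), higher with oxLDL and pNaKtide than with oxLDL (1.29 ± 0.57) and in the difference of pNaKtide effects with and without oxLDL (2.18 ± 0.80). It is named after its values were seen. mt-Tl1 and mt-Tn were not called in any of the 10.

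Of nuclear genes for subunits of the same complexes, those called with oxLDL were mostly lower, and those called when pNaKtide was added were mostly higher. Of 37 nuclear subunits of complex I, 2 were higher and 21 lower with oxLDL than in control cells, with a median log2 fold change of -0.28, where 18.1% of all genes tested were higher and 18.0% lower. The counts were 0 higher and 6 lower of 9 for complex III (median -0.28), 1 higher and 5 lower of 15 for complex IV (median -0.14) and 1 higher and 10 lower of 18 for complex V (median -0.27), against the 2 higher and 0 lower of the 13 mitochondrial genes (median 0.11). Ndufa3, a small accessory subunit of complex I, fell by 0.61 ± 0.14 on the log2 scale, from 95.2 ± 13.3 to 62.5 ± 8.44 CPM (SD, n = 5). Ndufs1, which carries iron-sulfur clusters of complex I, rose by 0.41 ± 0.13, from 197 ± 23.1 to 262 ± 14.2 CPM. With pNaKtide added to oxLDL, nuclear subunits were higher, with 32 higher and 1 lower of 37 for complex I (median 0.53), 6 and 0 of 9 for complex III (0.51), 7 and 0 of 15 for complex IV (0.63) and 14 and 0 of 18 for complex V (0.50), where 22.1% of all genes tested were higher and 26.1% lower. Ndufa3 rose by 1.05 ± 0.14 to 129 ± 28.5 CPM, and Ndufs1 fell by 0.62 to 170.2 ± 29.2 CPM. Against control cells, cells given oxLDL and pNaKtide had 12 of 37 subunits of complex I, 1 of 9 of complex III, 2 of 15 of complex IV and 7 of 18 of complex V higher and 0 lower, where 2.04% of all genes tested were higher and 3.16% lower. Ndufab1, the mitochondrial acyl carrier protein and a complex I subunit, had the smallest p-value among them, at 0.38 ± 0.08 (BH-adjusted p-value 0.00571 in edgeR). With IS, 0 subunits were higher and 3 lower over the 4 lists, where 4.45% of all genes tested were higher and 3.49% lower, among them Uqcrc1, a core protein of complex III (-0.36 ± 0.11, called in 2 of the 10 fits that left out 1 library), and with pNaKtide alone, or with pNaKtide added to IS, 0 were called, against 0.00497% and 0% of all genes tested. With the trend over GC content and length taken out, the counts for complex I were 5 higher and 13 lower with oxLDL, where 8.15% of all genes were higher and 12.7% lower, and 24 higher and 3 lower with pNaKtide added, where 20.1% were higher and 16.5% lower. The 13 mitochondrial genes had a median of -0.43 with oxLDL in that fit, below the -0.12 of complex I, -0.18 of complex III, -0.05 of complex IV and -0.17 of complex V. With pNaKtide added to oxLDL the order of the medians turned as well, at 1.02 for the 13 mitochondrial genes against 0.22, 0.27, 0.17 and 0.36 for the nuclear subunits of complexes I, III, IV and V.

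**Figure D5:**
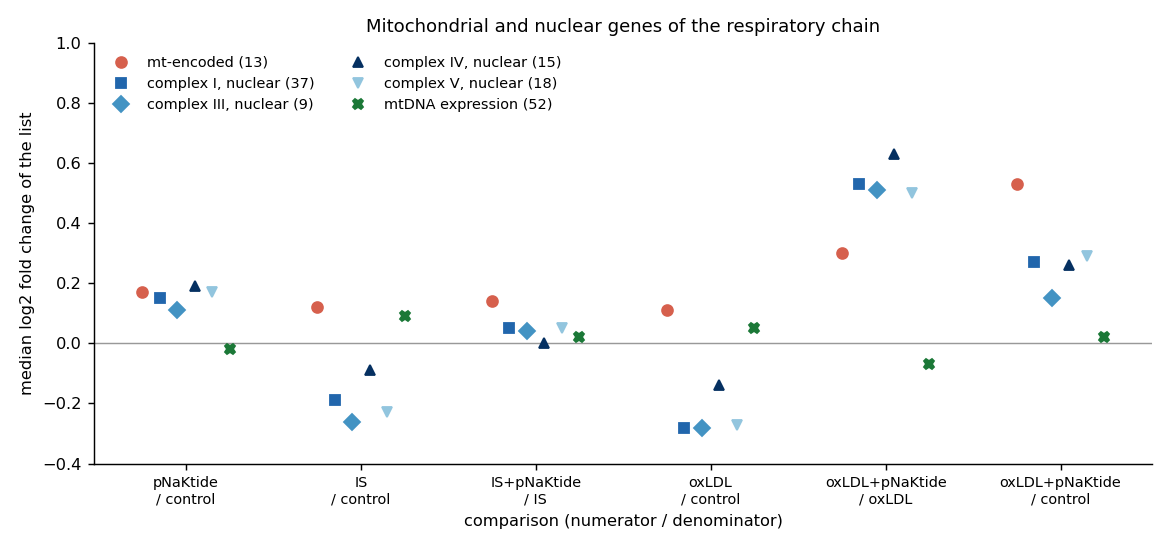
Median log2 fold change (vertical) of the 13 mitochondrial protein genes, of the nuclear subunits of 4 respiratory complexes and of 52 genes of mitochondrial DNA expression in 6 comparisons, with the number of genes in brackets. With oxLDL the nuclear subunits lie at -0.28 to -0.14 and the mitochondrial genes at 0.11, and with pNaKtide added to oxLDL the nuclear subunits lie at 0.50 to 0.63 and the mitochondrial genes at 0.30. With the trend over GC content and length taken out, which is not drawn, the mitochondrial genes lie below the nuclear subunits with oxLDL (-0.43) and above them with pNaKtide added (1.02).

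The nuclear genes that copy, transcribe and process mitochondrial DNA and its RNA moved in both directions. Of 52 such genes, 17 were higher and 9 lower with oxLDL than in control cells (median log2 fold change 0.05), where 18.1% of all genes tested were higher and 18.0% lower. With pNaKtide added to oxLDL, 10 were higher and 16 lower (median -0.07), where 22.1% of all genes tested were higher and 26.1% lower. These counts depended on the scaling. With the trend over GC content and length taken out, they were 13 higher and 9 lower with oxLDL (median 0.03), where 8.15% and 12.7% of all genes were, and 15 higher and 11 lower with pNaKtide added (median 0.07), where 20.1% and 16.5% were. With libraries scaled by their total counts alone, they were 24 and 6 (median 0.18), where 24.6% and 11.3% of all genes were, and 5 and 33 (median -0.29), where 13.4% and 38.1% were. Polrmt, the mitochondrial RNA polymerase, was at 51.2 ± 7.46 CPM (SD, n = 5) in controls, 40.4 ± 3.62 with oxLDL and 52.0 ± 2.43 with oxLDL and pNaKtide. It fell with oxLDL (log2 fold change -0.35 ± 0.09, BH-adjusted p-value 0.011 in edgeR) and rose with pNaKtide added (0.37 ± 0.09). Tfam, which packs mitochondrial DNA and starts transcription, went the other way, at 20.1 ± 3.22, 26.0 ± 1.32 and 19.4 ± 4.40 CPM in the same groups. It rose with oxLDL (0.37 ± 0.13, not called without control replicate 4) and fell with pNaKtide added (-0.41 ± 0.13). Neither gene was called in these comparisons once the trend over GC content and length was taken out. Of the pair that stabilizes mitochondrial mRNAs, Lrpprc rose with oxLDL (0.28 ± 0.11, not called without control replicate 2, 4 or 5 or oxLDL replicate 5) and was at -0.11 ± 0.11 with pNaKtide added, which did not pass, and Slirp passed in neither (-0.11 ± 0.10 and 0.14 ± 0.10). With that trend taken out, Lrpprc was not called with oxLDL (0.14) and was higher with pNaKtide added (0.17, BH-adjusted p-value 0.0347 in edgeR), and Slirp was lower with oxLDL (-0.44) and higher with pNaKtide added (0.56), past the threshold in both. Of the called genes of the list, the largest rise with oxLDL and with IS was that of Mterf1a, a transcription termination factor, which rose by 1.33 ± 0.34 with oxLDL and by 1.34 ± 0.34 with IS from a low level of 1.60 ± 0.834 CPM. Its close paralog Mterf1b is in the list too, and the sources used here do not give how reads shared by both were counted. The largest fall with pNaKtide added to oxLDL was that of Pnpt1, a polynucleotide phosphorylase of mitochondria, which fell by 1.25 on the log2 scale with pNaKtide added to oxLDL, from 36.8 ± 6.04 to 15.2 ± 4.81 CPM. Hsd17b10, a subunit of the nuclease that frees the 5′ ends of mitochondrial tRNAs, fell by 0.58 with oxLDL and rose by 0.74 ± 0.14 with pNaKtide added. With the trend taken out, Mterf1a, Pnpt1 and Hsd17b10 were still called in the same directions, at 0.89 with oxLDL and 0.99 with IS for Mterf1a, -0.52 for Pnpt1, and -0.38 and 0.46 for Hsd17b10. With IS, 6 of the 52 genes were higher and 3 lower, where 4.45% of all genes tested were higher and 3.49% lower, the largest fall being that of Tbrg4 (-0.36 ± 0.11), an RNA-binding protein of mitochondria. Of the 10 fits that left out 1 library of these groups, Tbrg4 was called in 2, without control replicate 1 and without IS replicate 4, and Mterf1a in 3, the third of them without control replicate 3. The counts with IS were 2 higher and 3 lower with the trend taken out, where 2.29% and 2.94% of all genes were, and 12 and 2 with total counts alone, where 10.6% and 2.07% were. With pNaKtide alone and with pNaKtide added to IS, 0 were called, against 0.00497% and 0% of all genes tested. In cells given oxLDL and pNaKtide, 0 were higher and 1, Polg, the mitochondrial DNA polymerase, lower (-0.20 ± 0.07) than in control cells, where 2.04% of all genes tested were higher and 3.16% lower. It was called in 3 of the 10 fits that left out 1 library. With the trend taken out Polg was not called (-0.10, BH-adjusted p-value 0.548 in edgeR), and 3 of the 52 genes were higher and 0 lower, where 5.15% and 4.39% of all genes were.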

How the data were processed

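Libraries of 3T3-L1 cells were made with a stranded, poly(A)-selecting mRNA kit. The authors trimmed reads with Trimmomatic (0.38) and aligned them with HISAT2 (2.1.0) to GRCm38, and deposited raw counts per Ensembl gene. They also deposited normalized counts made with DESeq2 (1.20.0), a signal on a linear scale, and FPKM values. Which annotation release was used, and whether reads were counted by strand, is not given in the sources used here.

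Symbols were matched for 54079 of 54232 genes, and the members and gene lists were chosen with earlier results of these data known. Counts were fitted in R (4.3.3) with edgeR (4.0.16), TMM scaling, 1 model of the 6 groups and the quasi-likelihood test, over the 20139 genes with more than 14 counts over all libraries. P-values were adjusted by Benjamini-Hochberg over these genes, and a gene was called at 0.1, the threshold of the study. CPM are TMM-normalised unless stated otherwise, and SE stands after ± beside log2 fold changes. FPKM were used for levels between genes. Shares are of all counts of a library, and lists were described by counts and medians without a test. The fit was tested on simulated counts.

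All protein and rRNA genes of mitochondrial DNA were named, with tRNA genes of at least 1 CPM on average. Of nuclear genes, Polrmt, Tfam, Lrpprc and Slirp were named, with the called gene of the expression list with the largest change, and the called subunit with the smallest p-value, in each direction and comparison. Alternatives were other scalings and filters, a 0.05 threshold, a replicate block, DESeq2 (1.42.0), limma (3.58.1) on log2(FPKM + 1), a GC and length trend (mgcv 1.9.3) as an offset, and leaving out libraries. Sums with the nuclear copies, and leaving out replicates 1 and 4 of oxLDL with pNaKtide together, or replicate 1 for the gene lists, were chosen after seeing the data. No pair of libraries of a group agreed within sampling noise.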

Additional observations from a re-analysis of the deposited data

Results flagged for a closer look

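Of 96 sets of 5 libraries, 1 gene in 1 group each, 9 had a library far from the other 4, where chance gives about 1 in 20. mt-Co1 had 3 of them. Control replicate 5 was at 11853 CPM where the other controls were at 15773 to 16436 CPM, IS replicate 4 at 17974 CPM where the others were at 12081 to 13745 CPM, and oxLDL replicate 3 at 15947 CPM where the others were at 11682 to 12545 CPM. For mt-Nd1, replicate 3 of oxLDL with pNaKtide was at 3386 CPM, below the 4077 to 4339 CPM of the others. mt-Atp8 in oxLDL replicate 2 was at 889.9 CPM, above 192 to 351 CPM. mt-Nd4l in pNaKtide replicate 3 was at 556 CPM, above 459 to 479.9 CPM. mt-Rnr1 was at 514 CPM in oxLDL replicate 3, above 382 to 405 CPM, and at 1311 CPM in replicate 1 of oxLDL with pNaKtide, above 616 to 742 CPM. mt-Rnr2 in that library was at 1413 CPM, above 454 to 570.2 CPM.

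The log2 fold change with pNaKtide differed between cells with and without oxLDL in edgeR for mt-Rnr1 (by 0.71), mt-Rnr2 (by 0.83) and mt-Co1 (by 0.45). Of all genes tested, 24.6% differed. The call of mt-Co1 was lost in most fits that left out a single library. That of mt-Rnr2 was lost without replicate 1 of oxLDL with pNaKtide. Between cells with oxLDL and cells with IS the change with pNaKtide differed for mt-Rnr1 (by 0.79), mt-Rnr2 (by 0.83), mt-Co1 (by 0.46) and mt-Atp8 (by -0.96), and for 29.3% of all genes tested. Neither mt-Co1 nor mt-Atp8 was called without IS replicate 4, and neither without oxLDL replicate 2. Both differences of mt-Rnr2 include replicate 1 of oxLDL with pNaKtide, at 1413 CPM where the others of its group were at 454 to 570.2 CPM.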

How the results depend on the processing

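The counts of called protein genes were 2 for oxLDL against control, 8 for oxLDL with pNaKtide against oxLDL and 8 for it against control. For oxLDL against control, the count was 1 at an adjusted p of 0.05, 5 with library size alone, 10 (all lower) with the GC content and length trend taken out, 5 without control 1 and IS 4, and 0 to 4 when single libraries were left out. Of all genes, 36.0% were called, 20.8% to 48.0% under these alternatives and 24.7% to 46.1% without single libraries. For IS against control, it was 0 (7.94% of all genes called), but 3 without control 1 and IS 4 (45.8%), and 0 to 2 without single libraries (0.0747% to 34.4%). For oxLDL with pNaKtide against oxLDL, no alternative moved the count by over 1.5 times, and it was 7 to 10 without single libraries. Of all genes, 48.3% were called, and 41.5% to 48.9% without single libraries. For oxLDL with pNaKtide against control, the count was 0 in a fit of the compared groups alone, which called 11 of all genes. It was 6 to 9 without single libraries. Of all genes, 5.20% were called there in the main fit, and 2.51% to 6.54% without single libraries. For IS with pNaKtide against control, where 0 were called (0.358% of all genes), the replicate block gave 2 (6.64%), DESeq2 2 (7.38%), and the fit without control 1 and IS 4 gave 6 (32.7%), and leaving out single libraries 0 to 6 (0.00997% to 26.9%). For pNaKtide against control, IS with pNaKtide against IS, and the difference of pNaKtide effects with and without IS, the count was 0 under every alternative run, single libraries left out included (0 to 0).

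For the difference of pNaKtide effects with and without oxLDL (1 gene), the count was 0 at an adjusted p of 0.05, with genes of at least 1 count and without replicates 1 and 4 of oxLDL with pNaKtide. It was 2 with DESeq2 size factors, with filterByExpr and with the replicate block, 3 with DESeq2 and with genes over 14 counts in every library, 10 with the GC and length trend taken out, and 0 to 3 without single libraries. Of all genes, 24.6% (4951) were called in this test, 5.96% to 46.4% under these alternatives and 2116 to 7515 genes without single libraries. For the difference between oxLDL and IS (2 genes), it was 0 at an adjusted p of 0.05 and without control 1 and IS 4. It was 1 with library size alone, with genes of at least 1 count, in the compared groups alone and without replicates 1 and 4 of oxLDL with pNaKtide. It was 4 with DESeq2 size factors, both stricter filters and the replicate block, 6 with DESeq2, 9 with the trend taken out and 0 to 4 without single libraries. Of all genes, 29.3% were called, 14.5% to 52.2% under these alternatives and 18.9% to 33.0% without single libraries. Correlations between the deviations of same-numbered libraries ran from -0.71 to 0.79 over the compared pairs. With 5 libraries per group they cannot decide whether the numbers pair libraries, and the labels do not say.

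With the trend taken out, the direction turned for oxLDL against control in mt-Nd1 (-0.52), mt-Nd2 (-0.59), mt-Co2 (-0.31), mt-Atp6 (-0.07), mt-Co3 (-0.32), mt-Nd3 (-0.43), mt-Nd4 (-0.44), mt-Nd5 (-0.62), mt-Nd6 (-0.57) and mt-Cytb (-0.38), for oxLDL with pNaKtide against oxLDL in mt-Nd3 (0.49), and for the difference with and without oxLDL in mt-Atp6 (0.39), and the cause was not tested. Turns of values past the threshold in neither fit were not counted. Library size alone shifted the median of all genes to 0.17 for oxLDL against control, with 4963 higher and 2276 lower in place of 3637 and 3622, and to -0.30 for oxLDL with pNaKtide against oxLDL, with 2696 higher and 7680 lower in place of 4458 and 5264.

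In the order control, pNaKtide, IS, IS with pNaKtide, oxLDL and oxLDL with pNaKtide, the share of the library was 6.34, 6.55, 7.28, 7.69, 7.46 and 8.01% with the nuclear copies, and 4.27 to 4.77, 4.64 to 4.86, 4.86 to 5.12, 5.21 to 5.63, 4.91 to 5.28 and 5.50 to 6.08% without single libraries. The part of mt-Co1 was 20.9, 22.3, 17.5, 18.3, 16.2 and 20.5% by FPKM and 23.9, 25.6, 20.1, 21.0, 18.8 and 23.4% with copies and 39.8, 40.9, 35.8, 36.6, 34.5 and 38.4% without overlapping genes, and that of mt-Atp6 12, 10.2, 14.4, 13.1, 15.6 and 9.7% by FPKM and 12.1, 10.3, 14.5, 13.2, 16 and 9.8% with copies. Without single libraries the part of mt-Co1 was 33.3 to 34.3, 34.9 to 36.0, 27.9 to 29.9, 29.9 to 30.6, 26.9 to 28.3 and 32.5 to 33.5%, and that of mt-Atp6 8.2 to 8.7, 6.6 to 7.5, 10.2 to 11.7, 9.4 to 9.7, 11.3 to 12.3 and 6.3 to 7.3%. At 6 to 62 counts per library, values of the tRNA genes carry a large counting error.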

Other observations

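The copy of mt-Nd4 on chromosome 1, which matches only its first part, was counted at a ratio to mt-Nd4 whose range in each of the 5 treated groups overlapped that of the controls, 0.348 to 0.490. The median ratio of Gm28439 to mt-Nd4 counts was 0.378 in controls, 0.360 with pNaKtide, 0.512 with IS, 0.496 with IS and pNaKtide, 0.502 with oxLDL and 0.421 with oxLDL and pNaKtide, and 0.348 to 0.621 over the 30 libraries. For IS, IS with pNaKtide and oxLDL, whose lowest ratios were 0.438, 0.418 and 0.435, the overlap came from control replicate 1 alone. That library had 20346 counts on Gm28439 and 41555 on mt-Nd4. The ratio was not tested.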
